A study of Mus musculus with 2 samples.

Results

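The apolipoprotein genes *Apoa1*, *Apoa2*, *Apoa4*, *Apoa5*, *Apob*, *Apoc1*, *Apoc2*, *Apoc3*, *Apoe* and *Apom* were followed by name in liver tumor RNA, 10 genes of the 48526 in the deposited table. Liver tumor nodules came from male *Fabp4*-KO (*Fabp4*-/-) C57BL/6N mice and from male WT littermates. Both genotypes had been given the liver carcinogen *N*-nitrosodiethylamine (DEN), injected i.p. on day 14 of life at a dose of 25 mg/kg, and a high-fat diet (HFD) for 29 weeks from 6 weeks of age, a model of hepatocellular carcinoma in steatotic liver. Each genotype has 1 polyA library, so no difference given here has a replicate check, and no p-value was computed. No source used here gives the number of mice or tumors behind a library, or says whether RNA was pooled. The libraries held 59600850 estimated read pairs for *Fabp4*-/- and 56353665 for WT. *Fabp4* itself, the gene deleted, was at 0.03 TPM in the *Fabp4*-/- library and 44.1 TPM in the WT library, from 1 and 1786 estimated read pairs. *Alb*, which encodes the serum albumin made by hepatocytes, was at 65261 TPM in *Fabp4*-/- and 49157 TPM in WT, so the defining transcript of liver was abundant in both.

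Apolipoproteins are the protein part of lipoproteins, the particles that carry triglyceride and cholesterol through blood, and the liver makes most of them. ApoB is the large scaffold that stays with a very low-density lipoprotein (VLDL) particle for life, while the small apolipoproteins A, C and E move between particles. ApoA1 and ApoA2 are the main proteins of high-density lipoprotein (HDL), apoC2 activates lipoprotein lipase, apoC3 slows the clearance of triglyceride-rich particles, apoA5 favors it, and apoE is a ligand of the receptors that take up remnants. All but *Apoa2*, *Apob* and *Apom* lie in a pair of gene clusters, *Apoa1*, *Apoc3*, *Apoa4* and *Apoa5* on chromosome 9 of mm10 between 46228580 and 46271919, and *Apoc2*, *Apoc4*, *Apoc1* and *Apoe* on chromosome 7 between 19671579 and 19699188.

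Of the 10 apolipoproteins, 8 were at a higher TPM in the *Fabp4*-/- library than in the WT library, and 4 of them, *Apoa5*, *Apoa4*, *Apoc2* and *Apoc3*, were at least 2-fold higher. Over all 13557 genes measured, 2108 were at a higher TPM in *Fabp4*-/- than in WT. TPM is a transcript level corrected for length and library total. Of the 13557 genes at 1 TPM or more in the higher library, 2.18% were at least 2-fold higher by TPM and 14.2% at least 2-fold lower, and 0 of the 10 apolipoproteins were at least 2-fold lower. The 4 genes lay between 1.05 and 1.29 in the log2 ratio of TPM, *Fabp4*-/- over WT with 0.5 added to each value, and the next, *Apoa1*, was at 0.45. The median log2 ratio was 0.43 for the apolipoproteins and -0.46 for all genes measured. By the authors' normalised read counts, read counts divided by 1 size factor per library, the median of all genes measured was 0.04, a shift of 0.50 between the scales. The apolipoprotein median on that scale was 1.002, and 5 of 10 were past 2-fold upward, where 5.76% of all genes measured were, *Apoa1* being the fifth with a log2 ratio of 1.02. Downward, 0 of 10 were past 2-fold, where 7.6% of all genes measured were. In bulk RNA, more cells of a type and more RNA per cell cannot be told apart.

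**Figure D1:**
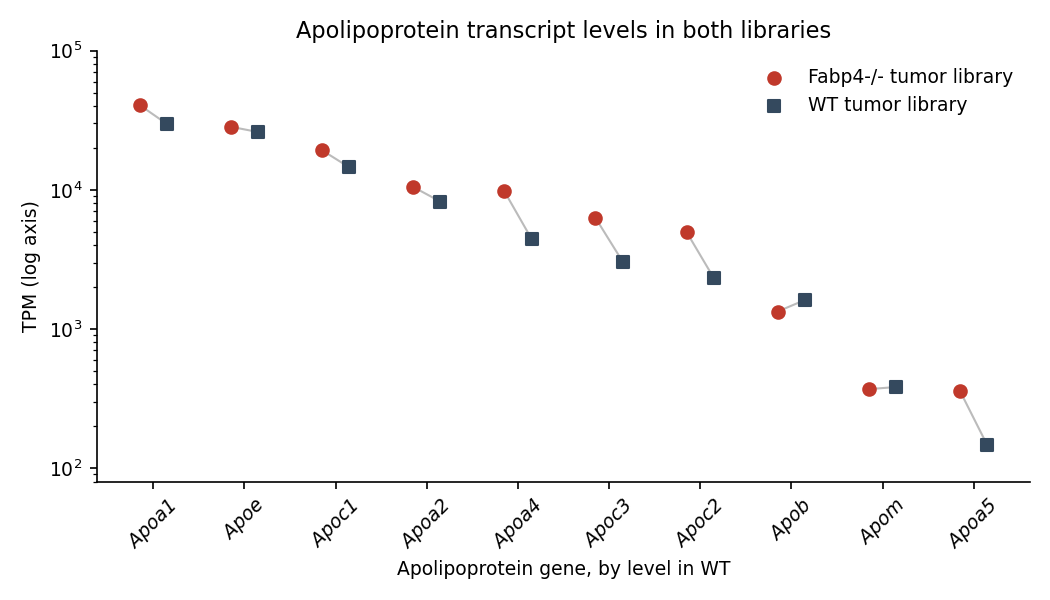
TPM (log axis) of each apolipoprotein gene, with a circle for the *Fabp4*-/- library and a square for the WT library, 1 library each and no error bars. The steep lines belong to *Apoa4*, *Apoc3*, *Apoc2* and *Apoa5*, and *Apob* and *Apom* are the only genes with the circle below the square on this scale.

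Promoter windows were read for the genes that stood highest in *Fabp4*-/-, from RefSeq on GRCm38.p6. Of the 10 apolipoproteins, 8 had an entry, and *Apoc1* and *Apoc3* had none. The 3 windows below end just before the RefSeq start of the gene, are written 5′ to 3′ on the gene's own strand, and are shown because these genes were past 2-fold together. The *Apoa5* window ends at 46268607, short of the gene start at 46268633 in the deposited table. Capitals mark CAAAGTTCA in *Apoa4*, a form of the site that the hepatocyte factor HNF4 can bind, the TATA box TATAAA in *Apoa5*, and the nuclear receptor half-site AGGTCA in *Apoc2*, whose window begins after the last exon of *Apoc4*.
*Apoa4*, chr9:46240594-46240695, plus strand: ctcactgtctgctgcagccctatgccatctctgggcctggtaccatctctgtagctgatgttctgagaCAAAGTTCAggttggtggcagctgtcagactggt
*Apoa5*, chr9:46268358-46268607, plus strand: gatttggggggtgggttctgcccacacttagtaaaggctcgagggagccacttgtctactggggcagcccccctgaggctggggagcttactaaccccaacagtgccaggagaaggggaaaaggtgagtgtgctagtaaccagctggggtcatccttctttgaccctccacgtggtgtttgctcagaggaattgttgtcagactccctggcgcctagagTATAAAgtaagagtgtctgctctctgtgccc
*Apoc2*, chr7:19677942-19678082, minus strand: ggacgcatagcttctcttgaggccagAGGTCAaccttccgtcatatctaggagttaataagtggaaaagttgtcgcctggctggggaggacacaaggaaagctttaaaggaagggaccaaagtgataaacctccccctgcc

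Each element was searched on both strands in the 250 bases before the RefSeq start of all 32851 windows. CAAAGTTCA was in 0.335% of them and, in windows cut to the 102 bases printed for *Apoa4*, in 0.137%. It was added to the search after the sequences had been seen. TATAAA was in 12.4% of windows and, among the apolipoproteins, in windows of *Apoa2*, *Apoa5*, *Apob* and *Apoe*. AGGTCA was in 14.0% of windows, in 8.05% when these were cut to the 141 bases printed for *Apoc2*, and in those of *Apoa2* and *Apoc2*, so no element was found in all 3 windows printed. The HNF4 forms CAAAGTCCA (0.384%) and CAAAGGTCA (0.426%) and the palindromic HNF1 site (0.00913%) were in no apolipoprotein window, the C/EBP site TTGCNNAA (9.56%) was in windows of *Apoa2* and *Apob*, and CCAAT (33.8%) in those of *Apoa2*. AGGTCA is also the end of CAAAGGTCA. A match is letters in a window and not a binding site.

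The highest ratios among the 10 were those of *Apoa5*, *Apoa4*, *Apoc2* and *Apoc3*. *Apoa5* (ENSMUSG00000032079.11, chromosome 9, 46268633 to 46271919), whose product raises the action of lipoprotein lipase, was at 358 TPM in the *Fabp4*-/- library and 146 TPM in the WT library, a log2 ratio of 1.29. It was the least abundant of the 10 in both libraries. *Apoc2* (ENSMUSG00000002992.17, chromosome 7, 19671579 to 19677941), for the activator of that lipase, was at 4979 TPM in *Fabp4*-/- and 2318 TPM in WT, a log2 ratio of 1.10. *Apoc3* (ENSMUSG00000032081.9, chromosome 9, 46232933 to 46235636), for the inhibitor, was at 6303 TPM in *Fabp4*-/- and 3044 TPM in WT, a log2 ratio of 1.05. Inhibitor and activator thus kept nearly the same proportion, with 1.27 *Apoc3* transcripts for each *Apoc2* transcript in *Fabp4*-/- and 1.31 in WT. *Apoa4* (ENSMUSG00000032080.6, chromosome 9, 46240696 to 46243459), for a large exchangeable apolipoprotein of triglyceride-rich particles and HDL that mouse liver and intestine both make, was at 9802 TPM in *Fabp4*-/- and 4441 TPM in WT, a log2 ratio of 1.14. Its level ranked 18th of all genes in *Fabp4*-/- and 29th in WT. By normalised counts the log2 ratios of *Apoa5*, *Apoa4*, *Apoc2* and *Apoc3* were 1.86 (95% exact binomial CI 1.83 to 1.89), 1.71 (1.70 to 1.71), 1.67 (1.66 to 1.69) and 1.62 (1.60 to 1.64), and these intervals cover counting error only. Each apolipoprotein rested on 14424 estimated read pairs or more in either library.

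Of the HDL proteins, *Apoa1* and *Apoa2* were higher in *Fabp4*-/- by a smaller ratio, and *Apom* was near equal by TPM. *Apoa1* (ENSMUSG00000032083.8, chromosome 9, 46228580 to 46230466), for the structural protein of HDL that activates the cholesterol-esterifying enzyme LCAT, was the most abundant apolipoprotein in both libraries, at 40741 TPM in *Fabp4*-/- and 29747 TPM in WT, a log2 ratio of 0.45. *Apoa2* (ENSMUSG00000005681.12, chromosome 1, 171225054 to 171226379), for the other main HDL protein, was at 10502 TPM in *Fabp4*-/- and 8229 TPM in WT, a log2 ratio of 0.35. *Apom* (ENSMUSG00000024391.7, chromosome 17, 35128997 to 35132050), a lipocalin that carries sphingosine-1-phosphate on HDL, was at 369 TPM in *Fabp4*-/- and 382 TPM in WT. Its log2 ratios were -0.05 (TPM) and 0.52 (normalised counts), so that its direction depends on the scale. By normalised counts *Apoa1* and *Apoa2* were at 1.02 and 0.92. With 40741 TPM of *Apoa1* beside 9802 TPM of *Apoa4*, there were 4.16 *Apoa1* transcripts for each of *Apoa4* in *Fabp4*-/- and 6.70 in WT.

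Ligands and companions of remnant particles, apoE and apoC1, were near the hepatocyte markers. *Apoe* (ENSMUSG00000002985.16, chromosome 7, 19696109 to 19699188), which hepatocytes and macrophages both make, was at 28431 TPM in *Fabp4*-/- and 26024 TPM in WT, log2 ratios of 0.13 (TPM) and 0.70 (normalised counts). *Apoc1* (ENSMUSG00000040564.14, chromosome 7, 19689481 to 19692660), for the smallest apolipoprotein C and also a macrophage transcript, was at 19281 TPM in *Fabp4*-/- and 14518 TPM in WT, log2 ratios of 0.41 (TPM) and 0.98 (normalised counts). The 25 hepatocyte markers, such as *Alb*, *Ttr* and *Ahsg*, had median log2 ratios of 0.23 (TPM) and 0.79 (normalised counts). *Apoc1* was above that median and *Apoe* below it on both scales. The HDL genes *Apoa1* and *Apoa2* were also near it, above by 0.22 and 0.12 by TPM, against 0.18 for *Apoc1*. Of 17 measured macrophage markers, 2 (*Marco* and *Spp1*) stood past 2-fold upward by TPM and 2 (*Fcgr1* and the complement gene *C1qa*) downward, with 5 up and 0 down in normalised counts. The list median was -0.36 (TPM) and 0.19 (normalised counts), and the summed level was 1496 TPM in *Fabp4*-/- and 1199 TPM in WT. The secreted protein *Spp1* made up 985 TPM of that sum in *Fabp4*-/- and 468 TPM in WT, and the part of macrophages in the *Apoe* and *Apoc1* levels was not tested.

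*Apob* (ENSMUSG00000020609.14, chromosome 12, 7977648 to 8016835), for the scaffold of VLDL, was the lowest of the 10 in ratio. It was at 1334 TPM in *Fabp4*-/- and 1616 TPM in WT, a log2 ratio of -0.28 by TPM. By normalised counts the ratio was 0.01 (0.0041 to 0.022 by the exact binomial 95% interval), and the sign was also positive with median centring (0.18) and upper quartile scaling (0.11). *Apob* was 0.18 above the median of all genes measured by TPM and 0.03 below it by normalised counts (-0.03), where 52.3% of genes measured had a higher ratio. There were 30.5 *Apoa1* transcripts for each *Apob* transcript in *Fabp4*-/- and 18.4 in WT by the deposited TPM. Both of these values rest on the *Apob* length estimate described below.

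**Figure D2:**
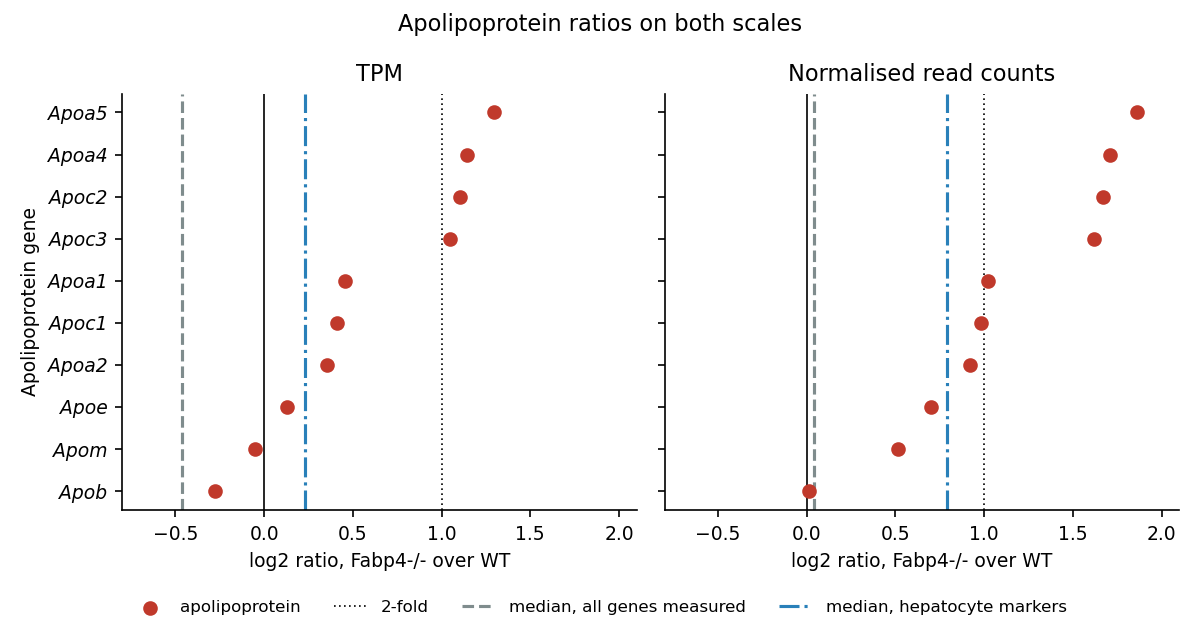
The log2 ratio of *Fabp4*-/- over WT for each apolipoprotein by TPM (left) and by normalised read counts (right), with lines at 0, at 2-fold, at the median of all genes measured and at the median of the hepatocyte markers. The order of the genes is the same on both scales, and *Apoa5*, *Apoa4*, *Apoc2* and *Apoc3* are to the right of every line. By normalised counts *Apoa1*, at 1.02, is also right of every line. *Apob* and *Apom* are left of 0 by TPM and right of 0 by normalised counts.

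The level of *Apob* rested on an estimate of its transcript length. Read pairs per TPM follow the length that the authors' quantification gave a gene: over 409 protein-coding genes with 1 annotated transcript, a straight line returned the annotated length within 5% for 99.8% of genes in each library. For *Apob* this line gave 2821 nt in *Fabp4*-/- and 3376 nt in WT. GENCODE M21 lists *Apob* transcripts of 13934, 13369, 2174 and 1118 nt, so the implied length lay between those of the long and the short transcripts in both libraries. For *Apoa4*, with 1 transcript of 1815 nt, the line gave 1815 nt in both libraries. The other 9 apolipoproteins differed between the libraries by at most 0.269% in that length, whereas *Apob* in *Fabp4*-/- was at 83.6% of its length in WT. With all *Apob* read pairs put on the 13934 nt transcript, its level would be 255 TPM in *Fabp4*-/- and 374 TPM in WT, and with equal lengths in both libraries, an alternative chosen after seeing the data, its log2 ratio was -0.55 and those of the other 9 moved by at most 0.01.

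**Figure D3:**
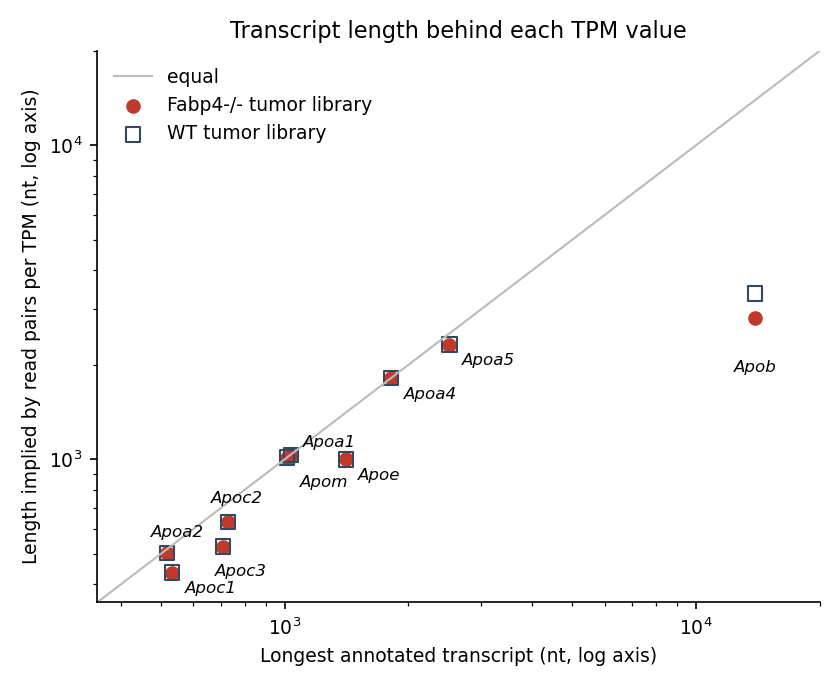
Length implied by read pairs per TPM (nt, log axis) against the longest transcript in GENCODE M21 (nt, log axis) for each apolipoprotein, with filled circles for *Fabp4*-/-, open squares for WT and a line where both are equal. *Apob*, at 2821 nt in *Fabp4*-/- and 3376 nt in WT, lies far below its 13934 nt, and for the other genes circle and square coincide.

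Taken as a family, the 10 apolipoproteins filled 12.2% of all TPM in the *Fabp4*-/- library and 9.05% in the WT library. *Apoa1*, *Apoe* and *Apoc1* made up 72.4% of that sum in *Fabp4*-/- and 77.7% in WT. The share of *Apoa4* was 8.03% in *Fabp4*-/- and 4.91% in WT, that of *Apoc3* 5.16% in *Fabp4*-/- and 3.37% in WT, and that of *Apoc2* 4.08% in *Fabp4*-/- and 2.56% in WT. The share of *Apoe* was 23.3% in *Fabp4*-/- and 28.8% in WT, that of *Apob* 1.09% in *Fabp4*-/- and 1.79% in WT, and that of *Apom* 0.302% in *Fabp4*-/- and 0.423% in WT. By the deposited TPM, the order of levels was the same in both libraries for all 10 genes, *Apoa1*, *Apoe*, *Apoc1*, *Apoa2*, *Apoa4*, *Apoc3*, *Apoc2*, *Apob*, *Apom* and *Apoa5* from high to low. In *Fabp4*-/- the lowest neighbors, *Apom* and *Apoa5*, were at 369 and 358 TPM, and with 1 library their spread is unknown. At the level it would have on its 13934 nt transcript, *Apob* would fall below *Apoa5* in *Fabp4*-/- and between *Apom* and *Apoa5* in WT.

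Within the chromosome 9 cluster, 3 of 4 genes were past 2-fold upward by TPM, and within the chromosome 7 cluster 1 of 4, where 2.18% of all genes measured were. By normalised counts 4 of 4 and 1 of 4 were, where 5.76% of all genes measured were. *Apoc3* is read from the opposite strand to *Apoa1*, *Apoa4* and *Apoa5*, and its ratio was close to those of *Apoa4* and *Apoa5*, with *Apoa1* below all 3. On chromosome 7, *Apoc4*, an apolipoprotein gene between *Apoc2* and *Apoc1*, was at 1628 TPM in *Fabp4*-/- and 1728 TPM in WT, log2 ratios of -0.09 (TPM) and 0.46 (normalised counts). *Apoc2* thus stood at 1.10 beside a gene at -0.09 that ends 141 bases before it on the same strand. The readthrough gene *Gm44805*, which spans *Apoc4* and *Apoc2* on the same strand, was at 22.9 TPM in *Fabp4*-/- and 25.7 TPM in WT, and reads that fall on more than 1 of these genes were divided by estimate. Within 50 kb of either cluster, 7 other measured protein-coding genes, *Sik3*, *Zpr1* and *Bud13* on chromosome 9 and *Relb*, *Clptm1*, *Tomm40* and *Nectin2* on chromosome 7, lay between -0.78 and -0.15 by TPM and between -0.24 and 0.45 by normalised counts, none past 2-fold. *Gm10680*, an antisense gene that overlaps the end of *Apoa4*, was at 299 TPM in *Fabp4*-/- and 129 TPM in WT. No source used here gives the strand setting of the counting, so its reads and those of *Apoa4* cannot be told apart.

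**Figure D4:**
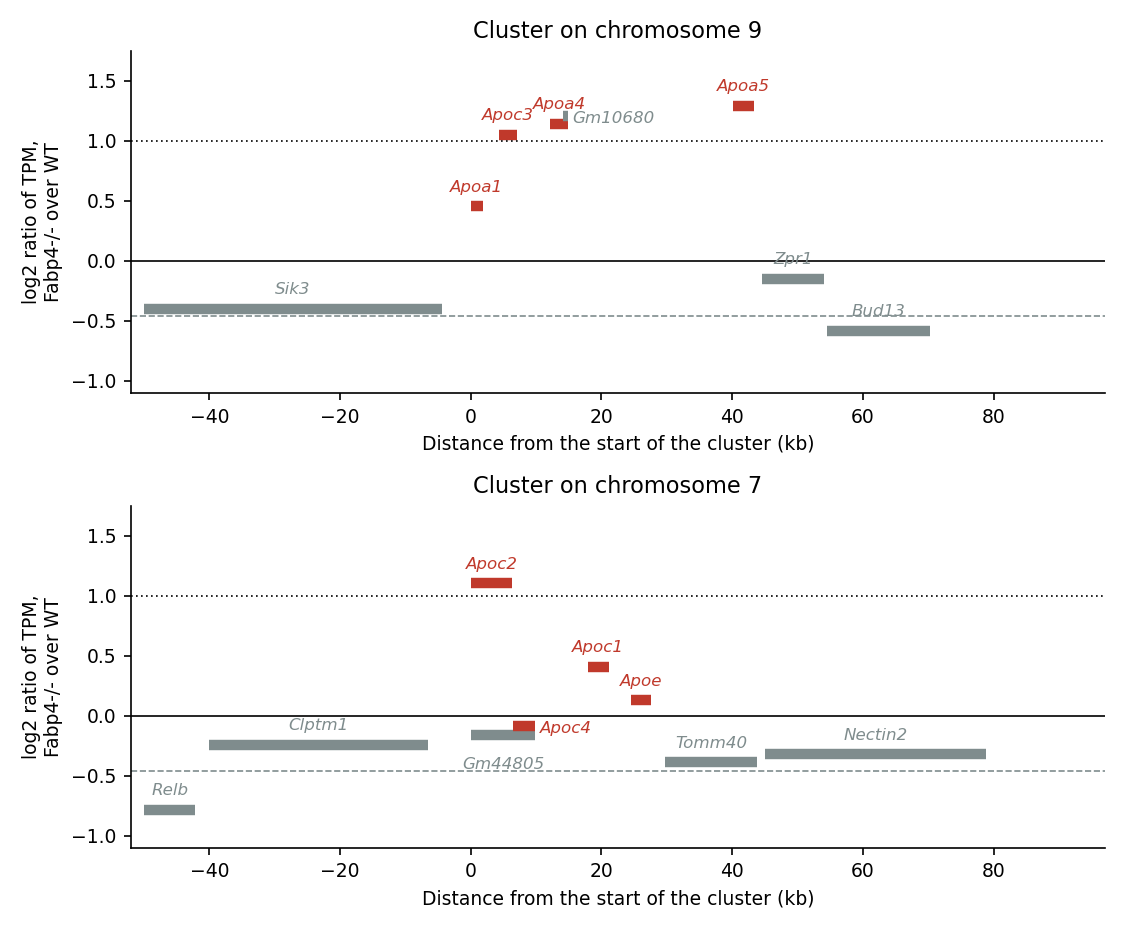
The log2 ratio of TPM + 0.5, *Fabp4*-/- over WT, of each measured gene against its place in kb from the start of the cluster on chromosome 9 (top) and chromosome 7 (bottom). Apolipoprotein genes, *Apoc4* included, are red, neighbors are grey (cut at 50 kb before the cluster), the dotted line is 2-fold and the dashed line the median of all genes measured. *Apoc3*, *Apoa4*, *Apoa5* and *Apoc2* are above the dotted line and every protein-coding neighbor is below 0 on the TPM scale.

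The ratios of the 4 highest apolipoproteins were set beside those of other hepatocyte transcripts. Relative to the hepatocyte marker median, *Apoa5*, *Apoa4*, *Apoc2* and *Apoc3* were higher by 1.06, 0.91, 0.87 and 0.82 (log2) by TPM. On that footing 1 gene, *Apoa5*, stayed past 2-fold, and *Apoe*, *Apom* and *Apob* were at -0.10, -0.28 and -0.51. The share of all genes measured past 2-fold on that footing was not computed. Of the 25 markers, 2 stood past 2-fold upward by TPM and 2 downward, with 5 up and 0 down in normalised counts. *Ttr*, for the thyroid hormone carrier transthyretin, was at 7455 TPM in *Fabp4*-/- and 3469 TPM in WT, and *Cps1*, for the first enzyme of the urea cycle, at 54.2 TPM in *Fabp4*-/- and 14.3 TPM in WT. The complement gene *C3* was at 776 TPM in *Fabp4*-/- and 1569 TPM in WT. Hepatocyte transcripts therefore lay on both sides, and among 990 genes at 100 TPM or more in the higher library, 4.55% were past 2-fold upward by TPM and 10.7% by normalised counts, and 6.26% and 2.22% downward.

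Several apolipoproteins are also made by the intestine, so its markers were read in the same libraries. Of 14 intestinal epithelial markers, 7 were measured, and the transcription factors *Cdx1* and *Cdx2*, *Fabp6* and the enterocyte enzyme *Sis* were at 0 in both libraries. By TPM, 2 stood past 2-fold upward and 4 downward, and by normalised counts 3 and 2, with medians of -1.13 and -0.57. *Tff3*, a trefoil peptide, was at 474 TPM in *Fabp4*-/- and 63.7 TPM in WT, and *Krt20* at 23.2 TPM in *Fabp4*-/- and 4.29 TPM in WT. *Vil1*, for the microvillus protein villin, was at 0.27 TPM in *Fabp4*-/- and 6.14 TPM in WT, and *Cdh17*, an intestinal cadherin, at 9.27 TPM in *Fabp4*-/- and 26.5 TPM in WT. The summed level of the list was 818 TPM in *Fabp4*-/- and 332 TPM in WT, most of it from *Tff3* and *Fabp2*, *Fabp2* being at 294 TPM in *Fabp4*-/- and 190 TPM in WT. Of 13 measured T and NK cell markers, 12 stood past 2-fold downward on both scales, with medians of -2.42 by TPM and -2.28 by normalised counts and a summed level of 13.5 TPM in *Fabp4*-/-, against 113 TPM in WT. By TPM ratio, the T cell genes *Cd3g* and *Cd8a* were the lowest, at 1.12 and 0.40 TPM in *Fabp4*-/-, against 16.2 and 7.91 TPM in WT, and the granzymes *Gzma* and *Gzmb* the least low, at 0.74 and 0.55 TPM in *Fabp4*-/-, against 1.22 and 1.83 TPM in WT. Of 9 measured stellate cell and fibroblast markers, 0 stood past 2-fold upward by TPM and 3 downward, with 1 up and 2 down in normalised counts, between *Acta2* (33.3 TPM in *Fabp4*-/-, 20.2 TPM in WT) and *Col1a1* (31.04 TPM in *Fabp4*-/-, 35.7 TPM in WT) at the top and *Reln* (29.0 TPM in *Fabp4*-/-, 85.7 TPM in WT) and *Lum* (3.33 TPM in *Fabp4*-/-, 12.3 TPM in WT) at the bottom. Of 4 measured adipocyte markers, *Cfd*, *Lipe*, *Cidec* and *Pparg*, 0 were past 2-fold on either scale. The part of these cell types in the apolipoprotein ratios was not tested.

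Genes for the assembly of VLDL had a median close to the ratio of *Apob* (-0.28) by the deposited TPM and not by normalised counts. The *Apob* ratio was -0.55 with equal lengths in both libraries and 0.01 by normalised counts. Of 21 measured assembly and secretion genes, 0 stood past 2-fold upward by TPM and 3 downward, with 2 up (*Sar1b* and *Apobec1*) and 1 down (*Mia2*) in normalised counts, and medians of -0.34 and 0.22. By TPM *Apobec1* was at 26.0 in *Fabp4*-/- and 28.9 in WT. Its log2 ratios were -0.15 (TPM) and 1.12 (normalised counts), so its direction depends on the scale. The 3 downward by TPM were *Mia2*, *Sort1* and *A1cf*, 14.3% of the list beside 14.2% of all genes measured. *Mttp*, for the transfer protein that puts triglyceride on apoB, was at 60.0 TPM in *Fabp4*-/- and 70.0 TPM in WT. *Mia2*, for a cargo receptor of endoplasmic reticulum exit sites, was at 2.25 TPM in *Fabp4*-/- and 13.4 TPM in WT, and *Sort1*, for the sorting receptor sortilin, at 4.33 TPM in *Fabp4*-/- and 11.1 TPM in WT. The highest of the list by TPM ratio were *Sar1b*, the GTPase of the vesicles that carry large lipoproteins, at 120 TPM in *Fabp4*-/- and 83.7 TPM in WT, and *Dgat2*, an enzyme of triglyceride synthesis, at 161 TPM in *Fabp4*-/- and 140 TPM in WT.

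Lipases and their regulators differed among themselves. Of 13 measured, 0 stood past 2-fold upward and 1 downward by TPM, with a median of -0.02, and 2 were at least 2-fold higher and 0 lower by normalised counts, with a median of 0.54. *Angptl8*, for a secreted regulator of lipoprotein lipase, was the lowest by TPM ratio, at 110 TPM in *Fabp4*-/- and 272 TPM in WT. *Lpl*, the target of *Apoc2*, *Apoc3* and *Apoa5* products, was at 50.8 TPM in *Fabp4*-/- and 84.2 TPM in WT, and hepatic lipase, *Lipc*, at 11.0 TPM in *Fabp4*-/- and 15.2 TPM in WT. *Pcsk6*, a proprotein convertase, was at 13.1 TPM in *Fabp4*-/- and 24.3 TPM in WT. Of the plasma HDL enzymes and carriers, *Lcat* was at 167 TPM in *Fabp4*-/- and 159 TPM in WT, and the phospholipid transfer protein *Pltp* at 49.6 TPM in *Fabp4*-/- and 34.9 TPM in WT.

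The receptors that take up apolipoproteins and the genes of cholesterol efflux had medians near that of all genes by TPM. Of 13 measured receptor genes, 0 were past 2-fold in either direction on either scale, the medians being -0.39 (TPM) and 0.24 (normalised counts). *Lrp1*, a remnant receptor, was at 138 TPM in *Fabp4*-/- and 200 TPM in WT, a log2 ratio of -0.54 on both scales. The shift between the scales in the median of all genes measured was thus absent for *Lrp1*. *Scarb1*, the HDL receptor, was at 95.5 TPM in *Fabp4*-/- and 127 TPM in WT. *Lrpap1*, the chaperone of *Lrp1* and its relatives, was at 27.3 TPM in *Fabp4*-/- and 21.1 TPM in WT, and *Sorl1* at 0.81 TPM in *Fabp4*-/- and 1.93 TPM in WT. Of 8 measured efflux genes, 1 was at least 2-fold lower by TPM and 0 by normalised counts, with medians of -0.47 and 0.12. *Abca1*, which loads apoA1 with cholesterol, was at 16.2 TPM in *Fabp4*-/- and 22.8 TPM in WT, and *Abcg1*, which exports cholesterol to HDL, at 2.65 TPM in *Fabp4*-/- and 6.36 TPM in WT. *Mylip*, for a ubiquitin ligase that lowers lipoprotein uptake, was at 2.13 TPM in *Fabp4*-/- and 3.49 TPM in WT. The sterol transporters of bile, *Abcg5* and *Abcg8*, were the highest by TPM ratio, at 55.3 and 32.6 TPM in *Fabp4*-/-, against 41.7 and 27.0 TPM in WT.

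Factors known to act on apolipoprotein promoters were not past 2-fold by TPM. Of 28 measured, 0 were at least 2-fold higher or lower by TPM and 3, *Srebf1*, *Cebpa* and *Foxa2*, were past 2-fold upward by normalised counts, with medians of -0.23 and 0.29. *Hnf4a*, the nuclear receptor of hepatocyte identity, was at 134 TPM in *Fabp4*-/- and 171 TPM in WT. *Creb3l3*, which activates *Apoa4*, *Apoa5* and *Apoc2* in mouse liver, was at 93.0 TPM in *Fabp4*-/- and 116 TPM in WT. By normalised counts both turned positive, *Hnf4a* at 0.23 against -0.35 by TPM and *Creb3l3* at 0.27 against -0.32. *Srebf1*, for a lipogenic factor, was at 69.2 TPM in *Fabp4*-/- and 44.5 TPM in WT, and *Cebpa*, for a hepatocyte factor, at 155 TPM in *Fabp4*-/- and 108 TPM in WT. *Rxra*, the partner of many nuclear receptors, was at 43.2 TPM in *Fabp4*-/- and 82.0 TPM in WT, and the clock repressor *Nr1d1* at 43.1 TPM in *Fabp4*-/- and 75.3 TPM in WT.

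**Figure D5:**
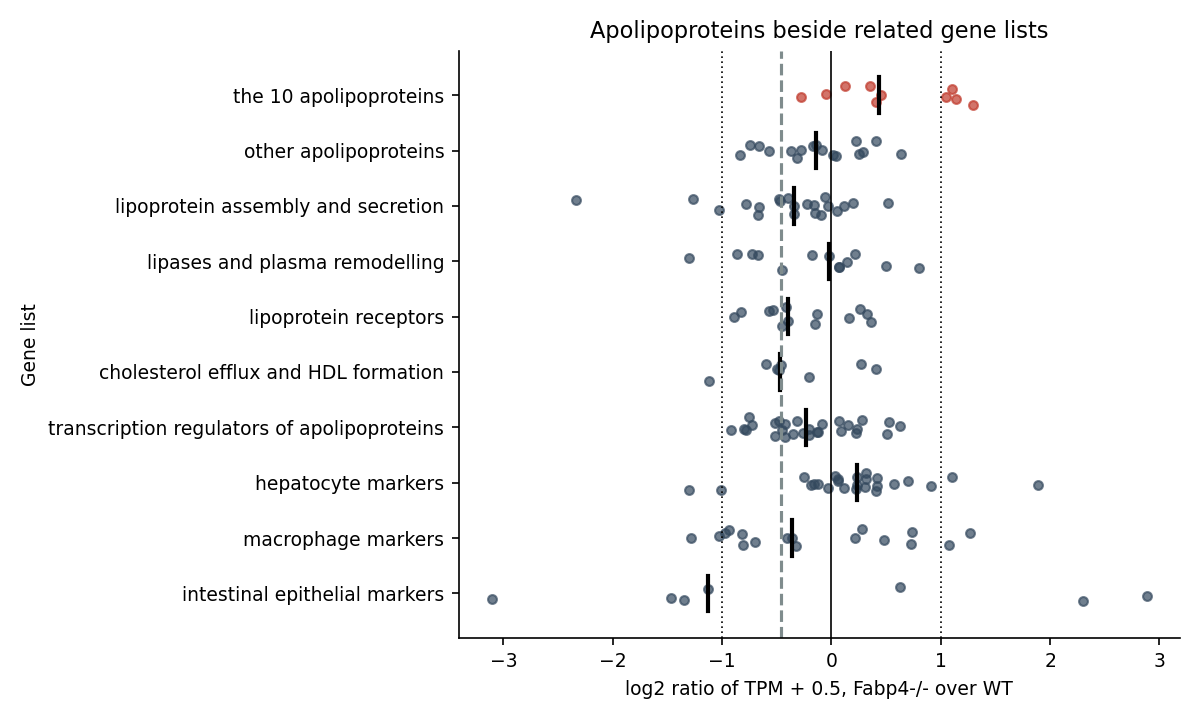
The log2 ratio of TPM + 0.5, *Fabp4*-/- over WT, of each measured gene in 10 lists, with a black bar at the median of each list, dotted lines at 2-fold and a dashed line at the median of all genes measured. The apolipoproteins have 4 genes right of the upper dotted line and a median of 0.43, against -0.14 for other apolipoproteins and 0.23 for hepatocyte markers.

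Apolipoproteins outside the 10 had a median above that of all genes measured on both scales. The median of all genes measured was -0.46 by TPM and 0.04 by normalised counts. Of 22 other apolipoproteins and related lipoprotein proteins, 17 were measured, with 0 past 2-fold in either direction by TPM and 1 at least 2-fold higher by normalised counts, and medians of -0.14 and 0.42. The highest by TPM ratio were *Apol7a*, at 16.2 TPM in *Fabp4*-/- and 10.3 TPM in WT, and *Saa2*, an acute phase apolipoprotein of HDL, at 66.4 TPM in *Fabp4*-/- and 50.03 TPM in WT. The lowest by TPM ratio were *Pon1*, for the paraoxonase of HDL, at 102 TPM in *Fabp4*-/- and 183 TPM in WT, and *Apobr*, for a macrophage receptor of apoB48, at 1.64 TPM in *Fabp4*-/- and 3.09 TPM in WT. *Saa2* and *Apol7a* have near-identical relatives, among which reads are divided by estimate.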

How the data were processed

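PolyA RNA of liver tumors was sequenced by the authors from both ends, 1 library per genotype. Alignment with STAR 2.5.2 and quantification with RSEM 1.2.31 on mm10 are listed, without settings, by the submitters' processing notes. The authors deposited TPM, which sum to 1000000 per library, and normalised read counts, a signal equal to estimated counts divided by 1 size factor per library. Read pairs were estimated by dividing by the most frequent value above 0 (1.13 for *Fabp4*-/-, 0.882 for WT). Of values above 0, 85.8% and 85.6% were then whole to within 0.0001. The authors' own fold changes, posterior probabilities and FDR are also deposited and were not used.

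Ratios are log2 of TPM + 0.5, for genes at 1 TPM or more in the higher library. With 1 library per genotype there is no test. Exact binomial 95% intervals of read-pair ratios cover counting error only. Members and lists (12 besides the members) were chosen with earlier results of these data known. Named are all members, *Fabp4*, set genes such as *Mttp* and *Hnf4a*, and in each list the 2 highest and 2 lowest ratios, except some genes that are not reported here. Cluster neighbors and *A1cf*, *Ahsg*, *Apobec1*, *Foxa2*, *Cdx1*, *Cdx2*, *Fabp2*, *Fabp6* and *Sis* were named after their values were seen. Positions are those of the deposited table (mm10). *Apoa5* and *Apoc3* have other bounds in GENCODE M21. Promoters are from RefSeq, GRCm38.p6. Scripts were tested on simulated data. Alternatives were other scalings, pseudocounts, minimums and thresholds. Scripts ran in Python 3.11.15 with pandas 2.3.3 and numpy 2.4.6, intervals came from scipy 1.17.1 and figures from matplotlib 3.10.9.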

Additional observations from a re-analysis of the deposited data

How the results depend on the processing

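Over 11 alternatives each, the log2 ratio of *Apoa5* ranged from 1.06 to 1.86, of *Apoa4* from 0.91 to 1.71, of *Apoc2* from 0.87 to 1.67, of *Apoc3* from 0.82 to 1.62 and of *Apoa1* from 0.22 to 1.02. *Apob* ranged from -0.55 to 0.18 and was above 0 in 3, *Apom* from -0.28 to 0.52 and above 0 in 5, and *Apoe* from -0.10 to 0.70 and above 0 in 10. Against 4 apolipoproteins at least 2-fold higher, 5 were by normalised counts and 1 (*Apoa5*) relative to the hepatocyte marker median, and 0 were at least 2-fold lower under any alternative run. Relative to that marker median, no share of all genes measured was computed. The apolipoprotein median of 0.43 became 1.002 by normalised counts, 0.82 with upper quartile scaling, 0.89 with median centring, 0.58 when the 20 most abundant genes (4 of them apolipoproteins) left the totals, 0.48 when the 10 members did and 0.20 relative to the hepatocyte marker median. Of all genes measured, 296 were at least 2-fold higher and 1928 lower, against 781 and 1030 by normalised counts, 625 and 670 with median centring, and 524 and 959 with upper quartile scaling, so the split turns on the scaling. At 1.5-fold 568 were higher and 5318 lower, and with a minimum of 5 TPM 1083 were lower. The all-gene median of -0.46 became 0.041 by normalised counts, -0.11 with upper quartile scaling, 0.00 by construction with median centring, -0.32 without the 20 genes, -0.28 with no minimum, -0.42 with a minimum of 5 TPM or a pseudocount of 1, and -0.49 with a pseudocount of 0.1. Of the pathway genes, 0 were higher and 5 lower with a median of -0.22, against 8, 1 and 0.30 by normalised counts, 3, 1 and 0.24 with median centring, and 3, 1 and 0.17 with upper quartile scaling. Without the 20 genes 3 were lower with a median of -0.069, at 1.5-fold 3 were higher and 22 lower, and with no minimum the median was -0.26. The apolipoprotein share was 8.08% in *Fabp4*-/- and 5.53% in WT by normalised counts. With the 20 genes left out, 4 apolipoproteins among them, the other 6 made up 4.05% of the remaining TPM in *Fabp4*-/- and 1.88% in WT, which is not the same quantity. Depth was no limit for the apolipoproteins, whose widest counting half-width was 0.032 (log2), and there was no replicate to leave out. No paired analysis was possible because *Fabp4*-/- and WT have 1 library each. The comparison with equal lengths and that with genes at 100 TPM or more were chosen after seeing the data.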
